A study of Mus musculus with 12 samples.

Results

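The 37 genes described here encode proteins that copy DNA in S phase, the part of the cell cycle in which the genome is duplicated. They were taken as a list of named genes, drawn up with earlier results of these data known, and are 37 of the 32285 gene symbols of the expression matrices. All 37 had UMIs (unique molecular identifiers, which count the captured RNA molecules) in the cells used. The libraries came from T cells sorted by CD4 and CD8 from MCA205 tumours, a mouse fibrosarcoma line, of which 300000 cells were placed under the skin of C57Bl/6 mice. Every mouse, the controls included, received 10 mg/kg of oxaliplatin, a platinum drug that damages DNA, 8 days after the tumour cells, and 200 µg of anti-PD1, a checkpoint antibody, 8 days after that. The 3 isotype mice were given a control antibody, and the 3 anti-ACBP mice an antibody that neutralises acyl-CoA binding protein (ACBP, also named DBI). Dosing with either antibody was 2.5 mg/kg, repeated every 2 days; it started 2 days ahead of oxaliplatin and ended 1 day ahead of anti-PD1. Tumours were taken 2 days after anti-PD1, CD4 and CD8 T cells were pooled at equal numbers, and 10000 cells were loaded per mouse. Each library is 1 mouse, so n = 3 libraries per group, and the ratio of CD4 to CD8 cells was set by the sort.

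Replication begins with licensing, in which the origin recognition complex (Orc1), Cdc6 and Cdt1 load the ring of Mcm2 to Mcm7 onto DNA. In S phase Cdc45 and the GINS complex turn that ring into an active helicase. DNA polymerases then extend primers behind it, held by the sliding clamp Pcna that the Rfc proteins load, while Fen1 and Lig1 join the fragments of the lagging strand. Ribonucleotide reductase (Rrm1, Rrm2), Tyms, Dut and Tk1 supply the nucleotides. Many of these genes are targets of E2F transcription factors, which are released when a cell commits to division. T cells that meet antigen divide in bursts, so these transcripts mark the dividing part of a T cell population.

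Promoters were searched for E2F letters because many of the genes are known E2F targets. RefSeq promoter windows (build GRCm38.p6, 250 bases before to 50 after the start) were found for 31 of the 37 genes, as 36 windows, and Mcm4, Gins1, Gins2, Pole, Rfc2 and Atad2 had no entry. The letters TTTCCCGC, TTTGGCGC or TTTCGCGC were searched on both strands, and matches on opposite strands may overlap. They were present in 14 of the 36 windows (38.9%), each of a different gene, against 606 of all 32851 windows (1.84%). Of 22 windows of mitotic genes 1 held them. The letters TTTGAA, the core of the cell cycle homology region of mitotic promoters, gave another order: 3 of the 36 windows (8.33%), 17.9% of all windows and 16 of the 22 mitotic windows (72.7%). In 8 genes a match lay wholly before the start site. For each, 60 bases that hold such a match are shown 5′ to 3′ on the gene's own strand, with the matches in capitals.
Orc1, chr4:108579394-108579453, plus strand: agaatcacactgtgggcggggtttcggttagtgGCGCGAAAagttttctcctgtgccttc
Cdc6, chr11:98907987-98908046, plus strand: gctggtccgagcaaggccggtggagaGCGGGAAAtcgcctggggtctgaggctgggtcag
Mcm5, chr8:75109330-75109389, plus strand: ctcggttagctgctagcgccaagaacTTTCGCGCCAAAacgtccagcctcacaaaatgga
Mcm6, chr1:128359782-128359841, minus strand: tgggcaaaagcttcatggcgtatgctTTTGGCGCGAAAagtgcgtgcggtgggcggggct
Mcm7, chr5:138172015-138172074, minus strand: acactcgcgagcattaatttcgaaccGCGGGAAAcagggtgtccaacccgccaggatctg
Pola1, chrX:93632260-93632319, minus strand: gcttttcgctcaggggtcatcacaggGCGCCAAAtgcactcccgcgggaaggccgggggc
Rfc3, chr5:151651209-151651268, minus strand: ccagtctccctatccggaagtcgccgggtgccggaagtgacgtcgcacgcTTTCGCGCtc
Uhrf1, chr17:56304102-56304161, plus strand: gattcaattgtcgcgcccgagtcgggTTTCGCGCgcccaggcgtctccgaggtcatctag
In Mcm5 and Mcm6, partners in the helicase ring, the capitals are 2 overlapping matches on opposite strands. These matches are letters only, and binding was not measured.

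The cells of the authors' metadata table were used, 30749 in all, from 2923 to 7238 per library, with medians of 4516 to 7682 UMIs per cell. Cells were placed in 3 classes by cluster and by their own Cd4, Cd8 and Foxp3 UMIs: 18056 CD8, 6607 conventional CD4 and 4826 regulatory T cells, with 1260 in no class. Foxp3, which defines regulatory T cells, had a UMI in 81.9% of the regulatory and 1.61% of the CD8 class. It was absent from conventional CD4 cells by construction. Cd4 had a UMI in 75% of the regulatory class. Any pair of libraries shared 15 to 63 cell barcodes, at most 1.105% of the smaller library. Lists of macrophage, B cell, dendritic, neutrophil, endothelial, natural killer and gamma-delta T cell markers summed to at most 46.5 CPM in any class, with overlapping groups. In regulatory T cells all 3 neutrophil genes were at 0.

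All 37 genes were highest in cluster 4, whose cells were all called S (34.1%) or G2M (65.9%) in the deposited phase column. The clusters and phases were made by the authors from the expression of these cells, so levels across them are a description with no test. Cluster 4 held 7.80% of the cells and 39.6% of the genes' UMIs. Levels are CPM, the gene's UMIs scaled to a common library total, summed over the cells of a library and given as the median of 6 libraries with the lowest and highest. The genes summed to 5830.5 CPM (5503 to 6246) in cluster 4 and 2196 (1534 to 2965) in cluster 2, the regulatory T cells. In cluster 1 they summed to 1022 (970.3 to 1109.6). Cluster 2 came next after cluster 4 for 30 genes, and cluster 1 was lowest for 30. After thinning every cell to 2000 UMIs, a cell of cluster 4 held a mean of 12 UMIs of the genes, one of cluster 2 3.40 and one of cluster 1 1.91.

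The genes differed in how much they stood out in cluster 4, with a ratio to the pooled other cells of 1.89 to 14.1 and a median of 3.77. Rrm2, the regulatory subunit of ribonucleotide reductase, was at 377 CPM (338 to 444) in cluster 4, 86.4 CPM (54.3 to 136) in cluster 2 and 8.34 CPM (7.34 to 9.85) in cluster 1. Cdc6, a loader of the helicase ring, was at 54.6 CPM (39.9 to 63.5), 14.1 CPM (6.89 to 21.6) and 1.58 CPM (1.0 to 2.0) in the same order. Slbp, which binds the ends of histone messages, was at 279.9 CPM (233 to 314), 149 CPM (121 to 155) and 127 CPM (88.5 to 141). So Slbp kept a large part of its peak level in cluster 1, and Rrm2 and Cdc6 a small one. Rpa2, a subunit of the single-strand binding protein, had the CD8 cluster 0 next after cluster 4, and Ung, which removes uracil from DNA, had cluster 7 next, at a ratio of cluster 4 to it of 1.10.

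**Figure D1:**
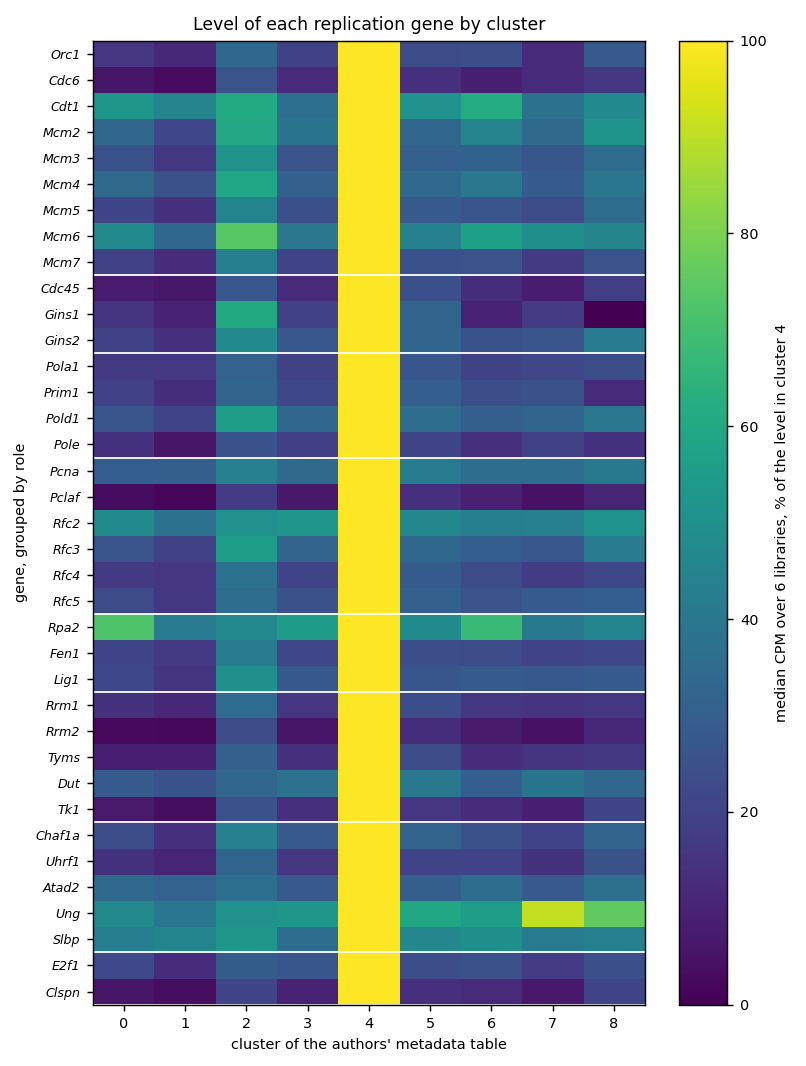
Median CPM over 6 libraries of each of the 37 genes (rows, grouped by role, white lines between roles) in clusters 0 to 8 (columns), as a percent of the gene's level in cluster 4. Every row peaks in cluster 4, cluster 2 is next in 30 rows, and cluster 1 is lowest in 30.

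Across the deposited phase calls the genes summed to 773 CPM in G1, 4774 in S and 3912 in G2M cells (medians of 6 libraries). S cells were 17.3% of all cells and held 47.9% of the genes' UMIs. The sources used here do not give the genes behind the phase calls. Of the 37 genes, 22 are in the S phase lists shipped with Seurat, the tool named in the submitters' processing notes, and 15 are not. The ratio of S to G1 cells had a median of 10.4 over the 22 and 7.89 over the 15. It ran from 2.31 (2.04 to 2.64) for Cdt1, the loading factor that is destroyed once S phase starts, to 147 (97.2 to 563) for Cdc6, whose G1 level was 0.315 CPM (0.0582 to 0.377). Rpa2 at 2.42 (2.23 to 2.72), Slbp at 2.44 (2.25 to 2.79) and Pcna at 3.82 (3.11 to 4.38) also had small ratios. Pclaf, a Pcna partner, was at 63.8 (52.7 to 88.6) and Clspn, a checkpoint adaptor at the fork, at 43.6 (35.7 to 53.2).

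S and G2M cells were told apart by some genes only. In 27 genes the level was higher in S than in G2M cells in all 6 libraries, in Pclaf, Rrm2 and Tk1 it was higher in G2M in all 6, and in 7 the order was mixed. Ung stood furthest towards S, at 14.1 (7.02 to 16.5) times its G2M level, followed by Mcm2 at 2.30 (1.94 to 2.72) and E2f1, the transcription factor itself, at 2.18 (1.51 to 2.88). Rrm2 was lowest, at 0.715 (0.513 to 0.947), with Pclaf at 0.733 (0.484 to 0.878) and Tk1, the thymidine kinase, at 0.803 (0.634 to 0.91). The 6 helicase ring genes all lay on the S side, from 1.43 for Mcm7 to 2.30 for Mcm2. The nucleotide genes spread over both sides, from Rrm2 to Dut at 1.28 (1.05 to 1.41).

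**Figure D2:**
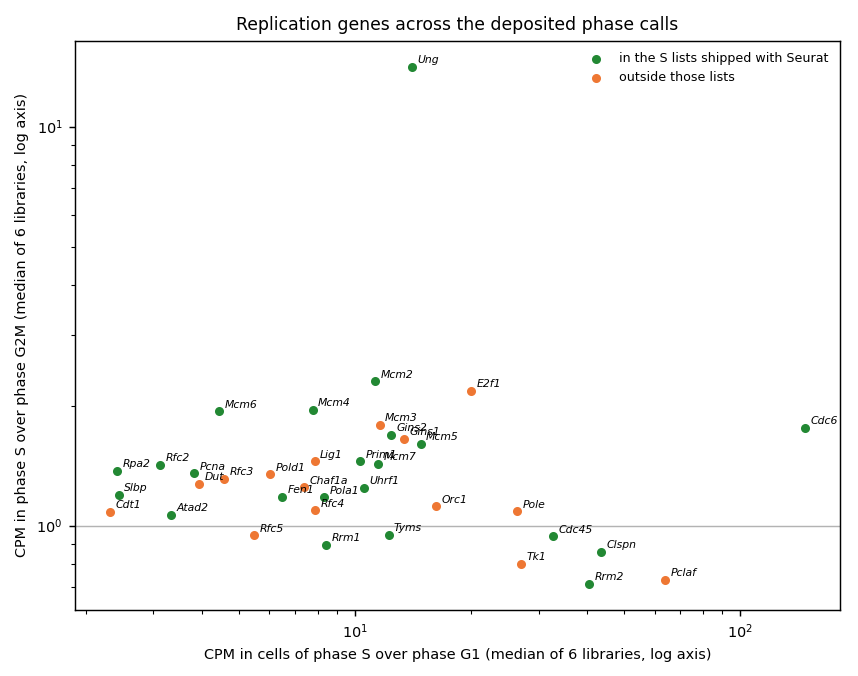
Each point is 1 of the 37 genes, placed by its CPM ratio of phase S to G1 cells (x, log axis) and of S to G2M cells (y, log axis), as the median of 6 libraries, with green points for the 22 genes in the Seurat S lists and orange points for the 15 outside. Ung stands alone at the top, Cdc6 at the far right, and Rrm2, Pclaf and Tk1 lie below the line at 1.

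The change with anti-ACBP was asked within each T cell class, beginning with regulatory T cells, the Foxp3-expressing cells that restrain other T cells. UMIs were summed per mouse and class and every expressed gene was tested with edgeR, with Benjamini-Hochberg adjustment over all genes tested. In that class 10 of the 37 genes fell and none rose, where 1.47% of all 10486 genes fell. The median log2 fold change was -0.58 over the 37 and 0.00 over all genes, and the value was negative for 37 of 37. An unadjusted p under 0.05 was met by 28 genes, against 21.2% of all genes. The 3 libraries of one group lay outside the range of the other for 24 genes, all lower with anti-ACBP, against 12.3% of all genes. The summed level was 2971, 2308 and 2635 CPM with isotype against 1998, 2046 and 1542 CPM with anti-ACBP, so the groups did not overlap. In such sums fewer dividing cells and less RNA per dividing cell cannot be told apart. Levels within phases are given further on, but the phase calls may rest on some of these genes. Rrm1, Lig1 and Chaf1a had the smallest p-values. The count depended on single libraries: it was 0 without anti-ACBP 2 or without anti-ACBP 3, 1 without isotype 3 or without anti-ACBP 1, 3 without isotype 1 and 22 without isotype 2. In a setting chosen after seeing the data, which kept only regulatory T cells with more Cd4 than Cd8 UMIs, it was 5, with a median log2 fold change of -0.60. Cd8 transcripts summed to 25.9 to 52.1 CPM in the isotype and 66.1 to 110.5 CPM in the anti-ACBP regulatory class. The fibroblast and tumour list, with 2 of 4 genes at 0, was at up to 0.302 against 0.357 to 0.637 CPM. The part of these transcripts in the result was not tested beyond that.

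**Figure D3:**
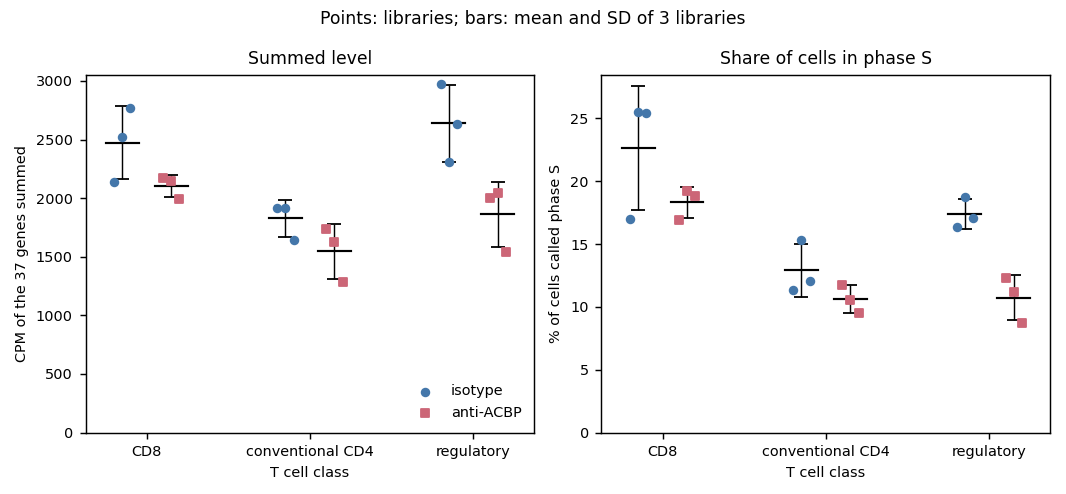
Left, CPM of the 37 genes summed, and right, percent of cells called phase S, in CD8, conventional CD4 and regulatory T cells; points are the 3 isotype (blue circles) and 3 anti-ACBP (red squares) libraries, with the mean and SD. In regulatory T cells all anti-ACBP points lie below all isotype points in both panels, and in the other classes the groups overlap.

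Among the licensing genes 3 of 9 fell in regulatory T cells, all of them parts of the helicase ring. Mcm6 was at 192, 192 and 195 normalized CPM with isotype against 144, 153 and 112 with anti-ACBP, with a log2 change of -0.49 ± 0.11 (SE, edgeR adjusted p = 0.035). The isotype values lay close together and above every anti-ACBP value. Mcm4 was at 113, 98.3 and 107 with isotype against 74.2, 84.3 and 59.2 with anti-ACBP, with a log2 change of -0.54 ± 0.12 (SE, edgeR adjusted p = 0.0382). Mcm2 was at 82.1, 67.6 and 62.7 with isotype against 42, 52.4 and 31.4 with anti-ACBP, with a log2 change of -0.74 ± 0.17 (SE, edgeR adjusted p = 0.0491). In both genes the groups did not overlap, and anti-ACBP 3 was the lowest library. Mcm5 was at 115, 83.9 and 102 with isotype against 62.5, 71.3 and 39.9 with anti-ACBP, with a log2 change of -0.77 ± 0.20 (SE, edgeR adjusted p = 0.0885), which did not pass although the groups were apart. Cdc6 was at 22.6, 13.5 and 20.5 with isotype against 11.2, 14.5 and 8.14 with anti-ACBP, with a log2 change of -0.73 ± 0.24 (SE, edgeR adjusted p = 0.118), with isotype 2 below anti-ACBP 2. Of the other ring genes Mcm3 had a value of -0.69 and Mcm7 of -0.40, and of the loaders Orc1 had -0.60 and Cdt1 -0.33.

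Of the genes for origin firing Gins2, a subunit of the GINS complex, fell, at -0.72 (edgeR adjusted p = 0.0498). Cdc45 (-0.56) and Gins1 (-0.38) did not pass. None of the 4 polymerase and primase genes passed, with values from -0.48 for Prim1, which makes the RNA primer, to -0.61 for Pold1, the catalytic subunit of the lagging strand polymerase. Their adjusted p-values ran from 0.0607 to 0.14. Of the clamp and its loader 1 of 6 fell, Rfc2, at -0.35 (edgeR adjusted p = 0.0497). Pcna, the clamp, was at 157, 127 and 149.5 with isotype against 136, 138 and 124 with anti-ACBP, with a log2 change of -0.12 ± 0.10 (SE, edgeR adjusted p = 0.511). Its groups overlapped. Its partner Pclaf had a value of -0.79, Rfc3 -0.16, Rfc4 -0.52 and Rfc5 -0.63, none of which passed.

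Both genes that finish lagging strand fragments fell in regulatory T cells. Lig1, the ligase, was at 109, 103 and 109.6 with isotype against 73.7, 76.3 and 58.1 with anti-ACBP, with a log2 change of -0.61 ± 0.11 (SE, edgeR adjusted p = 0.0187). Fen1, which trims the flap, was at 68.6, 60.6 and 63.4 with isotype against 48, 50.3 and 37.3 with anti-ACBP, with a log2 change of -0.49 ± 0.12 (SE, edgeR adjusted p = 0.0452). No anti-ACBP library reached an isotype library in either gene. Rpa2 had a value of -0.20 and did not pass.

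Of the nucleotide genes 1 of 5 fell. Rrm1, the large subunit of ribonucleotide reductase, was at 133, 98.3 and 119 with isotype against 78.8, 76.3 and 63.2 with anti-ACBP, with a log2 change of -0.68 ± 0.12 (SE, edgeR adjusted p = 0.0228). Its small partner Rrm2 was at 139.7, 68 and 104 with isotype against 90.2, 88.5 and 54 with anti-ACBP, with a log2 change of -0.42 ± 0.33 (SE, edgeR adjusted p = 0.532). The isotype libraries of Rrm2 were themselves spread over a wide range, and isotype 2 lay below 2 anti-ACBP libraries. Tyms, which makes thymidylate, was at 122, 75.8 and 99.3 with isotype against 83, 64.6 and 48.8 with anti-ACBP, with a log2 change of -0.59 ± 0.24 (SE, edgeR adjusted p = 0.222). Tk1 had the most negative value of the 37, -0.93 (edgeR adjusted p = 0.0619), with groups that did not overlap, and Dut, which removes dUTP, had -0.51. Neither passed.

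Of the chromatin, repair and histone message genes 2 of 5 fell. Chaf1a, a subunit of the factor that places histones on new DNA, was at 38.9, 36.5 and 33.2 with isotype against 22.4, 21.7 and 17 with anti-ACBP, with a log2 change of -0.82 ± 0.13 (SE, edgeR adjusted p = 0.0144). This was the smallest p-value of the 37, and the highest anti-ACBP library was well below the lowest isotype library. Atad2, a bromodomain ATPase, was at 89.7, 66.6 and 78.8 with isotype against 55.5, 51.7 and 58.1 with anti-ACBP, with a log2 change of -0.52 ± 0.12 (SE, edgeR adjusted p = 0.0385). Uhrf1, which guides the copying of DNA methylation, was at 66.2, 38.8 and 49.5 with isotype against 34.8, 40.2 and 24.4 with anti-ACBP, with a log2 change of -0.63 ± 0.24 (SE, edgeR adjusted p = 0.184). Slbp was at 157, 121 and 157 with isotype against 158, 146 and 125 with anti-ACBP, with a log2 change of -0.01 ± 0.12 (SE, edgeR adjusted p = 0.972), the value nearest to 0 of the 37. Ung had a value of -0.64. Of the control genes E2f1 was at 21.4, 16.8 and 19.9 with isotype against 15, 15.8 and 6.66 with anti-ACBP, with a log2 change of -0.58 ± 0.24 (SE, edgeR adjusted p = 0.206), and Clspn had -0.73.

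**Figure D4:**
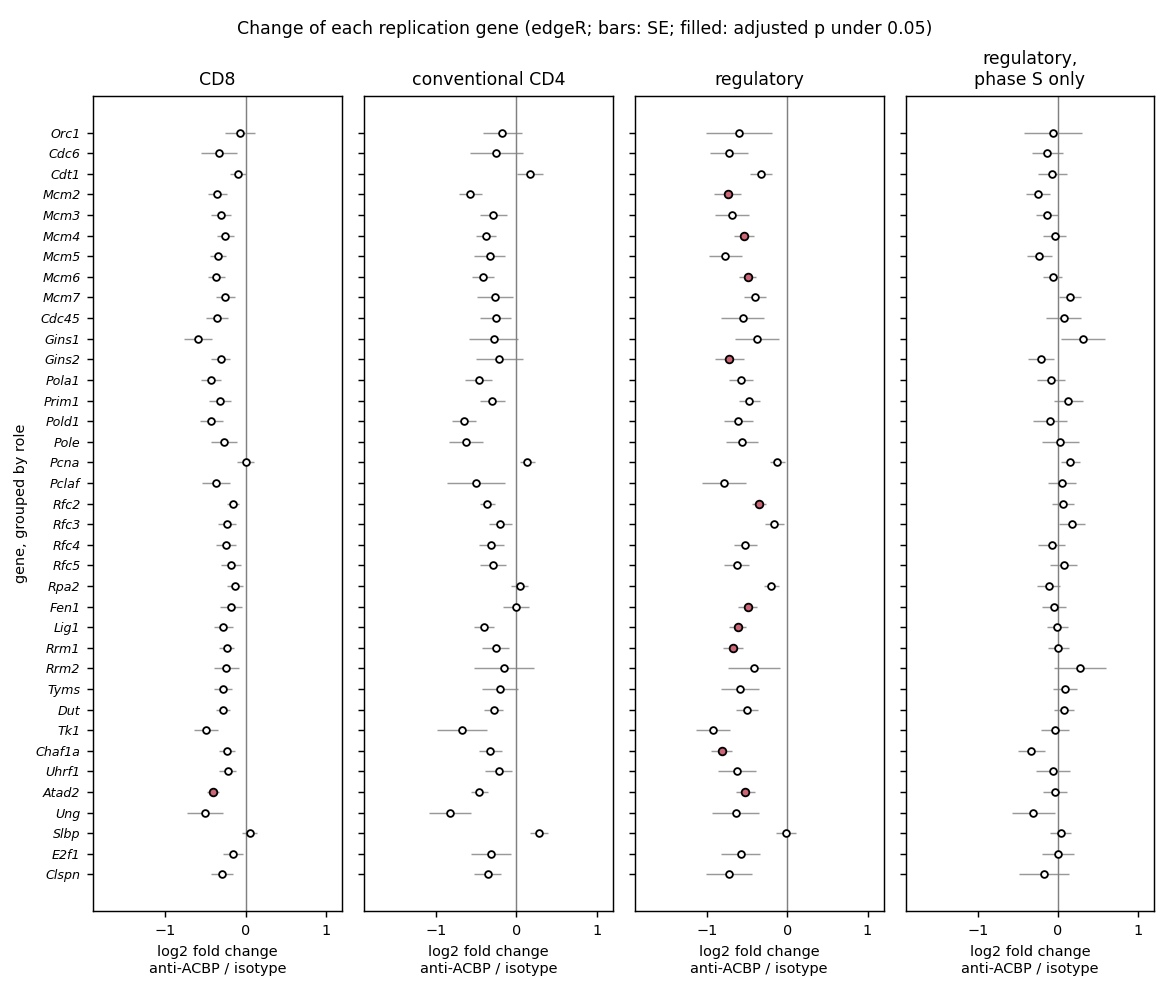
Log2 fold change of anti-ACBP over isotype (x) with its SE for each of the 37 genes (rows, grouped by role) for CD8, conventional CD4 and regulatory T cells and for regulatory T cells of phase S; filled points have an edgeR adjusted p under 0.05. In regulatory T cells all 37 points lie below 0 and 10 are filled, and within phase S none is filled and the median is -0.04.

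In CD8 T cells 1 of the 37 genes fell, Atad2, where 0.441% of all 11803 genes fell. Atad2 was at 85.9, 97.1 and 94.7 normalized CPM with isotype against 68.2, 72.8 and 67.6 with anti-ACBP, with a log2 change of -0.41 ± 0.07 (SE, edgeR adjusted p = 0.0457). The call was lost without any one of isotype 2, isotype 3 or the 3 anti-ACBP libraries, and without isotype 1 the count was 15. The median over the 37 genes was -0.28, with 35 negative, and 18 had an unadjusted p under 0.05 against 17.6% of all genes. For 11 genes the groups did not overlap, against 10.8% of all genes that were lower without overlap. The summed level was 2141, 2518 and 2765 CPM with isotype against 2170.3, 2149 and 1993 CPM with anti-ACBP, and isotype 1 lay among the anti-ACBP libraries.

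Of the genes fixed as leads for each role none passed in CD8 T cells. Mcm5 was at 65.8, 80.8 and 85.4 with isotype against 63, 63.2 and 56.2 with anti-ACBP, with a log2 change of -0.34 ± 0.11 (SE, edgeR adjusted p = 0.141). Tyms was at 70.3, 79.5 and 89.6 with isotype against 73.6, 62.1 and 60.4 with anti-ACBP, with a log2 change of -0.28 ± 0.11 (SE, edgeR adjusted p = 0.224). Rrm2 was at 87.4, 95.6 and 115 with isotype against 98.3, 86.9 and 67 with anti-ACBP, with a log2 change of -0.24 ± 0.15 (SE, edgeR adjusted p = 0.463). The groups of Mcm5 were apart, and in Tyms and Rrm2 isotype 1 lay among the anti-ACBP libraries. Cdc6 had -0.33 ± 0.22 (SE, edgeR adjusted p = 0.48), Uhrf1 -0.22 ± 0.11 (SE, edgeR adjusted p = 0.323) and E2f1 -0.16 ± 0.12 (SE, edgeR adjusted p = 0.55). Pcna was at 126, 131 and 157 with isotype against 150.3, 139 and 125 with anti-ACBP and Slbp at 156, 129 and 156 with isotype against 163, 157 and 136 with anti-ACBP. Their log2 fold changes were 0.00 and 0.05, with an SE of 0.10 and 0.10.

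In conventional CD4 T cells none of the 37 genes passed in edgeR or in DESeq2, where 0.0475% of all 10530 genes passed, and 13 had an unadjusted p under 0.05 against 14% of all genes. The median was -0.29, with 33 negative. For 10 genes the groups did not overlap, all lower with anti-ACBP, against 9.56% of all genes. Atad2 was at 69.8, 82.6 and 71.7 with isotype against 58.3, 51.2 and 53.2 with anti-ACBP, with a log2 change of -0.46 ± 0.10 (SE, edgeR adjusted p = 0.1). Pold1 was at 21.5, 23.4 and 18 with isotype against 14.3, 14.2 and 12 with anti-ACBP, with a log2 change of -0.66 ± 0.15 (SE, edgeR adjusted p = 0.1). Both were chosen after their values were seen, had groups apart, and missed the threshold. Mcm5 had -0.33 ± 0.19 (SE, edgeR adjusted p = 0.496), Tyms -0.21 ± 0.23 (SE, edgeR adjusted p = 0.756), Rrm2 -0.15 ± 0.37 (SE, edgeR adjusted p = 0.907) and Cdc6 -0.25 ± 0.33 (SE, edgeR adjusted p = 0.802). Slbp was at 139.6, 111 and 122 with isotype against 169, 148 and 135 with anti-ACBP, with a log2 change of 0.28 ± 0.11 (SE, edgeR adjusted p = 0.307), so its value was positive here, with anti-ACBP 3 below isotype 1. Pcna had 0.14 ± 0.10 (SE, edgeR adjusted p = 0.585). The summed level was 1919, 1919 and 1647 CPM with isotype against 1734, 1628 and 1285 CPM with anti-ACBP.

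Whether the change differed between regulatory and CD8 T cells was tested with the mouse as a block. None of the 37 genes passed in edgeR or in DESeq2, where 0.222% of 12155 genes did, and 5 had an unadjusted p under 0.05 against 9.44% of all genes. The median difference, regulatory minus CD8, was -0.32, with 35 of 37 negative. Chaf1a had the smallest p, at -0.61 ± 0.15 (SE, edgeR adjusted p = 0.169). A change of different size in the classes was therefore not shown, and equal change was not shown either.

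In regulatory T cells genes more strongly tied to phase had more negative values. Across the 37 genes, the log2 fold change in regulatory T cells had a Pearson r of -0.60 and a Spearman rho of -0.58 with the log2 ratio of S to G1 cells. These genes share the same 6 libraries and are not independent, so no p is given. The ratio also comes from the same cells as the changes, with phase calls that may rest on some of the genes. It is therefore not a separate measurement. For CD8 T cells r was -0.39 and rho -0.42, and for conventional CD4 T cells r was -0.37 and rho -0.23. The 10 genes with the smallest ratios, among them Cdt1, Rpa2, Slbp and Pcna, had a median log2 change in regulatory T cells of -0.34. The 10 with the largest ratios, among them Cdc6, Pclaf, Clspn and Rrm2, had -0.66. The same medians were -0.17 and -0.31 in CD8 T cells, and -0.24 and -0.32 in conventional CD4 T cells, where they lay close together.

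Other genes of the replication pathway were read from a list of 54. Among regulatory T cells 6 of 54 fell and none rose, where 1.47% of all genes fell, with a median of -0.44. Dtymk, which phosphorylates thymidylate, was at -0.61 ± 0.11 (SE, edgeR adjusted p = 0.0197), and Timeless, a fork protection factor, at -0.97 ± 0.18 (SE, edgeR adjusted p = 0.0235). Gmnn, the inhibitor of Cdt1, was at -0.55 ± 0.11 (SE, edgeR adjusted p = 0.028), Pold2 at -0.62 ± 0.13 (SE, edgeR adjusted p = 0.0294) and Dnmt1, the maintenance DNA methyltransferase that works with Uhrf1, at -0.55 ± 0.12 (SE, edgeR adjusted p = 0.0385). Cdca7 was at -0.90 ± 0.18 (SE, edgeR adjusted p = 0.028). Among CD8 T cells 0 of 54 passed in edgeR, 15 had an unadjusted p under 0.05 against 17.6% of all genes, and the median was -0.17. In conventional CD4 T cells 0 of 53 passed, 13 had an unadjusted p under 0.05 against 14% of all genes, and the median was -0.24.

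A list of 26 mitotic genes had more negative medians than the replication genes in each class: -1.11 for regulatory, -0.54 for CD8 and -0.61 for conventional CD4 T cells. Of the mitotic genes 7 fell in regulatory T cells, where 1.47% of all genes fell, and 1 in CD8 T cells, where 0.441% fell. None passed in conventional CD4 T cells, where 0.0475% of all genes passed, and the difference between the lists was not tested. Top2a, the topoisomerase of dividing cells, was at -0.65 ± 0.12 (SE, edgeR adjusted p = 0.0457) in CD8 and -1.05 ± 0.30 (SE, edgeR adjusted p = 0.126) in regulatory T cells. Mki67, the usual proliferation marker, was at -0.74 ± 0.17 (SE, edgeR adjusted p = 0.091) and -1.14 ± 0.30 (SE, edgeR adjusted p = 0.111).

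Within S cells no replication gene passed in any class, in edgeR or in DESeq2, and G2M cells were not tested on their own. Phase calls rest on cell cycle genes, which may include some of these, so a level within a phase is not independent of the call. In S cells the background was 0.272% of 10276 genes in CD8, 0.151% of 7280 among conventional CD4 and 0.46% of 8038 in regulatory T cells. The genes with an unadjusted p under 0.05 numbered 5, 5 and 0 in that order, against 11.5%, 7.32% and 7.73% of all genes, and the medians were -0.03, -0.14 and -0.04. Regulatory S cells numbered 234, 169 and 155 with isotype and 91, 55 and 31 with anti-ACBP. In them Mcm5 had -0.23 ± 0.15 (SE, edgeR adjusted p = 0.78) and Tyms 0.08 ± 0.15 (SE, edgeR adjusted p = 0.959). Despite the fewer cells, both SEs were smaller than in the whole regulatory class. Chaf1a had a value of -0.33, Lig1 of -0.01 and Rrm1 of 0.00.

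In G1 cells 35 of the 37 genes could be tested for CD8, 31 for conventional CD4 and 29 for regulatory T cells. None passed in edgeR or in DESeq2, against 0.951%, 0.169% and 1.63% of all genes, and 4, 7 and 6 had an unadjusted p under 0.05, against 16.2%, 13.5% and 16.4% of all genes. The medians of the tested genes were -0.02, -0.09 and -0.12. The genes with an unadjusted p under 0.05 went both ways in each class. Pcna and Atad2, chosen after their values were seen, moved in opposite directions. Pcna was at 0.35, 0.38 and 0.38 (edgeR adjusted p = 0.0981, 0.124 and 0.0848), with groups apart in each class. Atad2 was at -0.43, -0.44 and -0.22 (edgeR adjusted p = 0.11, 0.151 and 0.699).

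In cluster 4, the cluster of S and G2M cells, the direction of the values was not the one seen in the whole classes. The summed level there was 5773, 5829 and 5503 CPM with isotype against 6029, 6246 and 5832 CPM with anti-ACBP, and the share of its cells called S was 33.3, 29.1 and 31.2% with isotype against 36.5, 40.9 and 41.5% with anti-ACBP. Every anti-ACBP value lay above every isotype value in both, and neither was tested. In its CD8 cells none of the 37 genes passed in edgeR or in DESeq2, against 1.33% of 9994 genes, 5 had an unadjusted p under 0.05 (all genes 12.5%) and the median was 0.07. In its CD4 cells, regulatory T cells included, none passed in either tool, against 0.111% of 7228 genes. An unadjusted p under 0.05 was met by 3 (all genes 6.24%), and the median was 0.05. Orc1, chosen after its values were seen, had the smallest p in the CD8 cells, at 0.39 ± 0.15 (SE, edgeR adjusted p = 0.282). A deposited column named DF1, which the sources used here do not explain, was FALSE in 31.2, 7.75 and 19.9% of cluster 4 in the isotype and 81, 26.9 and 81.7% in the anti-ACBP libraries. Leaving out the cells with DF1 FALSE gave 13 called genes in regulatory and 0 in CD8 T cells, with medians of -0.80 and -0.62.

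In regulatory T cells the share of cells called S lay below every isotype library in each anti-ACBP library. It was 16.4, 18.8 and 17.1% with isotype against 12.3, 11.2 and 8.76% with anti-ACBP, a difference in means of -6.67 percentage points (exact two-sided permutation p = 0.1, the smallest that 3 against 3 allows). For CD8 T cells it was 17, 25.5 and 25.5% with isotype against 16.9, 19.2 and 18.8% with anti-ACBP, a difference of -4.31 points (exact permutation p = 0.3). In conventional CD4 T cells it was 11.4, 15.3 and 12.1% with isotype against 11.7, 10.6 and 9.50% with anti-ACBP, a difference of -2.32 points (exact permutation p = 0.2). With S and G2M added up the groups were apart in all 3 classes (exact permutation p = 0.1 each). The combined share was 35.2, 29.7 and 35% with isotype against 22, 17.9 and 15% with anti-ACBP for regulatory, 29.9, 40.2 and 42.7% with isotype against 27.4, 27 and 27% with anti-ACBP for CD8, and 22.1, 23.3 and 21.6% with isotype against 20.6, 17.1 and 15.3% with anti-ACBP for conventional CD4 T cells. Median UMIs per regulatory T cell were 8869, 4809 and 4231 in the isotype and 5389.5, 7154 and 5674 in the anti-ACBP libraries, which overlap. Per CD8 T cell they were 7321.5, 5200.0 and 5058 with isotype against 7231, 8219 and 7414.5 with anti-ACBP. Per conventional CD4 T cell they were 6617, 4190.0 and 3802 with isotype against 5896.5, 7331 and 6010.5 with anti-ACBP. In all 3 classes isotype 2 and isotype 3 thus had both the lowest depth and the highest shares of S cells. The part of depth in the share was not tested in any class. At most 0.943% of the regulatory class lay in cluster 4.

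Phase shares by UMIs, not by cells, were then set against the summed levels. Each phase of a class was given 1 level, its mean over the 6 libraries, and combined with each library's own UMI shares of the phases. For regulatory T cells this gave 2655 ± 189 CPM (SD, n = 3) for isotype and 1842 ± 273 for anti-ACBP, 30.6% lower. The observed sums were 2638 ± 331 and 1862 ± 278, 29.4% lower. For CD8 T cells the UMI shares alone gave a mean 16.4% lower and the observed sums one 15% lower. In conventional CD4 T cells these were 13.1% and 15.3%. UMI shares depend on the UMIs per cell as well as on the number of cells. Regulatory S cells had medians of 15594.5, 7290 and 7628 UMIs with isotype against 7276, 14375 and 8834 with anti-ACBP. The phase calls may rest on some of the same genes, so the shares are not independent of the levels.

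In CD8 T cells the replication genes were also compared between expanded and single clones. A clone was the cells of 1 library with the same TRB V gene and CDR3 nucleotides. Clones of 10 or more cells (10585 cells in all) were set against cells seen once (800 cells), within each of the 6 mice. The singletons numbered 102 to 178 cells per library, with 534964 to 1253814 UMIs in all. Singleton values of genes with a low level thus rest on few UMIs. Of the 37 genes 10 were higher in large clones and none lower, where 6.02% of 10058 genes were higher. The median log2 fold change was 0.41, with 35 positive, against -0.01 over all genes. Dut was at 180.1, 151 and 234 normalized CPM in the singletons and 234, 271 and 299 in the large clones of the isotype libraries, and 157, 134 and 180.3 against 218, 225 and 211 in the anti-ACBP libraries, with a log2 change of 0.48 ± 0.07 (SE, edgeR adjusted p = 7.36e-06). Tk1 was at 26.2, 31 and 45 normalized CPM in the singletons and 57.3, 70.0 and 84.7 in the large clones of the isotype libraries, and 26.1, 39.4 and 33.9 against 44.6, 51.9 and 43.1 in the anti-ACBP libraries, with a log2 change of 0.75 ± 0.12 (SE, edgeR adjusted p = 2.47e-05). Both were higher in the large clones of all 6 mice.

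Fen1 was at 23.8, 21.3 and 41.3 normalized CPM in the singletons and 44.1, 55.4 and 65.8 in the large clones of the isotype libraries, and 31, 33.8 and 35.4 against 45.5, 46.4 and 45.2 in the anti-ACBP libraries, with a log2 change of 0.65 ± 0.12 (SE, edgeR adjusted p = 0.000239). Every large clone value lay above every singleton value. Rpa2 had 0.51 ± 0.10 (SE, edgeR adjusted p = 0.000481), Rfc2 0.45 ± 0.10 (SE, edgeR adjusted p = 0.000757), Mcm5 0.47 ± 0.11 (SE, edgeR adjusted p = 0.00204) and Rfc5 0.49 ± 0.14 (SE, edgeR adjusted p = 0.0183), each higher in 6 of 6 mice. Cdc45 had 0.71 ± 0.23 (SE, edgeR adjusted p = 0.032) and was higher in 5 of 6. Rrm1 (0.64, 5 of 6) and Chaf1a (0.49, 6 of 6) passed too. Mcm6 (0.00) and Atad2 (0.01) were near 0. Of the lead genes that did not pass, Rrm2 had 0.67 ± 0.28 (SE, edgeR adjusted p = 0.213), Tyms 0.65 ± 0.30 (SE, edgeR adjusted p = 0.251) and E2f1 0.57 ± 0.21 (SE, edgeR adjusted p = 0.0647). Cdc6 had 0.57 ± 0.27 (SE, edgeR adjusted p = 0.181), Uhrf1 0.29 ± 0.13 (SE, edgeR adjusted p = 0.152), Pcna 0.14 ± 0.16 (SE, edgeR adjusted p = 0.678) and Slbp 0.13 ± 0.08 (SE, edgeR adjusted p = 0.334).

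The share of cells called S was 16.1 to 26.2% in the large clones and 15.2 to 24.1% in the singletons, and was higher in the large clones of 4 of 6 mice. The share called S or G2M was higher in 5 of 6. Cluster 4, where all 37 genes peaked, held 10.4, 12.5 and 16.2% of the large clones against 4.44, 3.39 and 12% of the singletons with isotype, and 8.11, 8.70 and 7.56% against 4.40, 4.90 and 7.30% with anti-ACBP. That share was higher in the large clones of all 6 mice, by little in anti-ACBP 3, and its part in the result was not tested. Other features moved with clone size. Cluster 1 held 15.7 to 35.6% of the singletons and 1.45 to 6.88% of the large clones, and median UMIs per cell ran from 3586 to 6008 and from 5244 to 8452. Without the cells of clusters 1 and 7 the count was 4 and the median 0.27. With every cell thinned to 2000 UMIs the count was also 4, with a median of 0.38. The list of 54 other replication genes had 5 higher and none lower, where 6.02% of all genes were higher, among them Rpa3, the small partner of Rpa2, at 0.61 ± 0.15 (SE, edgeR adjusted p = 0.00885). The 26 mitotic genes had 7 higher and none lower, against the same share of all genes.

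**Figure D5:**
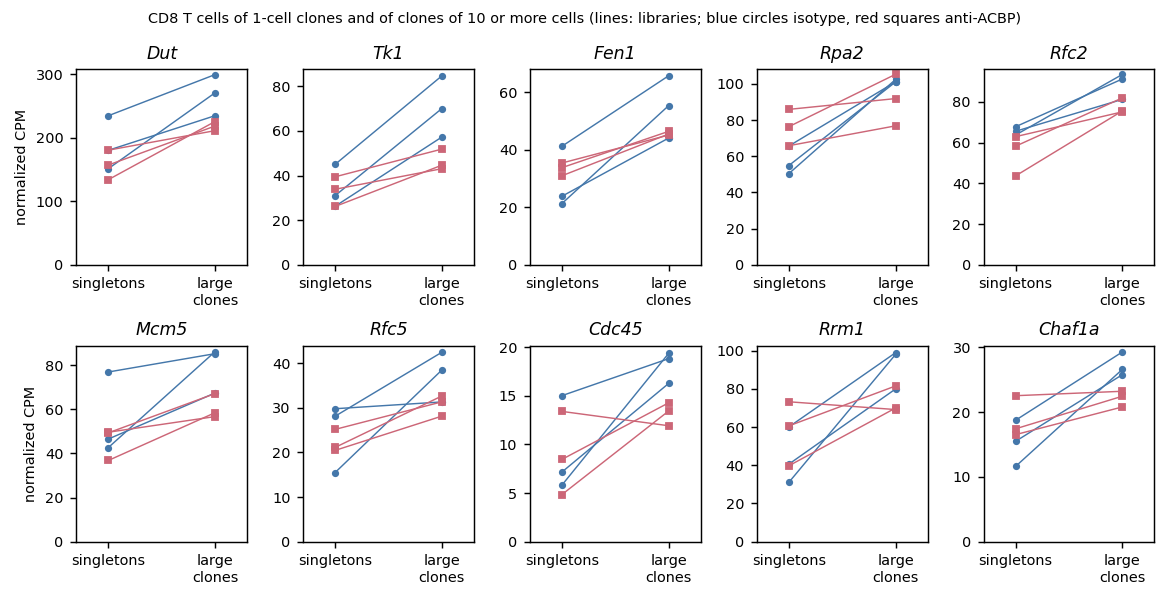
Normalized CPM (y) of the 10 genes with an edgeR adjusted p under 0.05 in singletons and in clones of 10 or more cells; each line is 1 library, isotype in blue circles and anti-ACBP in red squares. In 8 panels all 6 lines rise, and in Cdc45 and Rrm1 5 of 6 do.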

How the data were processed

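T cell libraries of 6 mice were measured by droplet single-cell RNA sequencing with matched receptor libraries. The values are raw UMI counts, deposited by the authors as 1 matrix per library and not normalized. Cell Ranger 7.0.0, Seurat and mm10 are named in the submitters' processing notes, and the authors' metadata table gave cells, clusters and phases. Whether ambient RNA was subtracted is not stated in those notes, and no doublet caller was run here.

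The 37 genes and all lists were chosen with earlier results of these data known. Counts were summed per library and class. Clusters 0, 3 and 6 were taken as CD8 and cluster 2 as regulatory, and other cells went by their own Cd4, Cd8 and Foxp3 UMIs. Sums of under 20 cells were left out. Sums were tested with edgeR 4.0.16 (quasi-likelihood, robust, TMM, low-count filter, receptor segments left out) in R 4.3.3, calls being adjusted p under 0.05 over all genes tested. Scripts were tested on simulated data. Shares were compared by exact permutation test (SciPy 1.17.1). Full statistics are given for at most 8 passing genes per class and for 8 fixed lead genes, which do not cover every role. Alternatives were DESeq2 1.42.0, other filters, scaling, classes and cells, thinned cells, a replicate block and leaving out each library.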

Additional observations from a re-analysis of the deposited data

Results flagged for a closer look

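In the comparison of large clones with singletons, 1 library stood far from the other 5 in 2 of 17 genes looked at. Chance flags about 1 in 20 such groups. For Cdc6 the large clones minus the singletons came to -11.8 CPM in isotype 3, and to 3.24 to 10.9 CPM in the other libraries. Its singleton values, from 1.94 to 35.6 normalized CPM, rest on few UMIs. For Slbp the difference was 63.3 CPM in isotype 2, where the next highest library was at 13.9 and the lowest at -2.70 CPM.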

How the results depend on the processing

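The median log2 change of the 37 genes stayed negative under all 14 alternatives in each class, from -0.80 to -0.43 in regulatory, -0.62 to -0.19 in CD8 and -0.57 to -0.17 in conventional CD4 T cells. The values of -0.80 and -0.62 were those without cells with DF1 FALSE, a setting that removed cells unevenly. It took CD8 cells of cluster 4 from 414, 282 and 499 to 305, 256 and 403 with isotype. With anti-ACBP it took them from 392, 156 and 213 to 76, 118 and 34. The part of this uneven loss in the medians was not tested. For clones the median stayed positive under all 15 alternatives, from 0.27 to 0.47. Counts of called genes moved more. In CD8 T cells 1 gene became 3 with DESeq2 and 0 without TMM, without cells with DF1 FALSE and with the replicate block, and 0 to 15 when 1 library was left out (15 without isotype 1, 0 without any other). In regulatory T cells 10 became 15 with DESeq2, 8 with the replicate block, 5 with the classes matched on Cd4 and Cd8 UMIs (chosen after seeing the data), and 0 to 22 with 1 library left out. Without a low-count filter the counts were 18 in regulatory, 3 in conventional CD4, 2 in CD8 G1 and 1 in regulatory G1 cells, 1 for the difference between classes and 17 for clones. Clones also gave 4 with clusters 1 and 7 left out, 4 with thinned cells, 8 with no replicate block and 7 to 13 with 1 library left out. Of 111 alternatives within S, G1 or cluster 4 cells, 109 called 0 genes. With S and G2M together the shares differed by -10.5, -4.68 and -15.0 points in CD8, conventional CD4 and regulatory T cells. Values near 0 changed sign. In CD8 T cells Pcna was at -0.0099 with DESeq2, -0.0098 with clusters 1 and 7 whole as conventional CD4, -0.017 with matched UMIs, -0.23 without DF1 FALSE cells, and -0.067 to 0.099 with 1 library left out. Slbp there was at -0.12 without DF1 FALSE cells and -0.045 to 0.11 with 1 library left out, and in regulatory T cells at -0.14 to 0.068. In conventional CD4 T cells Cdc6 ran from -0.48 to 0.11 and Rrm2 from -0.56 to 0.12 with 1 library left out. Pcna in regulatory T cells was at 0.083 in thinned cells. The cause of these shifts was not tested. Deviations of same-numbered libraries correlated at 0.23, 0.00 and -0.08 in CD8, 0.03, -0.18 and -0.04 in conventional CD4 and 0.24, -0.15 and -0.13 in regulatory T cells. Those of differently numbered libraries ran from -0.21 to 0.19, -0.17 to 0.21 and -0.19 to 0.25 in that order. Whether same-numbered libraries shared a batch cannot be read from these values. CD4 cells of cluster 4, regulatory T cells included, were not run without DF1 FALSE cells, since 3 libraries of 1 group were left. The smallest sum within phase S, of regulatory T cells in anti-ACBP 3, held 31 cells.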
